A study of Mus musculus with 12 samples.

Results

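The report covers 10 genes that make, release or receive Wnt signals, of 49315 genes counted in brain endothelial cells of mouse embryos. They are the Wnt ligands *Wnt4*, *Wnt5a*, *Wnt5b*, *Wnt7a*, *Wnt7b* and *Wnt11*, the secretion factors *Wls* and *Porcn*, and the receptors *Ror1* and *Ror2*. The genes were chosen by name, as ligands, secretion factors and receptors that endothelial cells can use, and were found in the count tables through the gene symbols of GENCODE vM21. Earlier results of these data were known when they were chosen, so counts of called genes beside shares of all genes are descriptive. RNA was sequenced from CD31+ cells of the E15.5 forebrain, with 4 wild-type, 4 *Gpr124ΔC/ΔC* and 4 *Gpr124-/-* embryos and 1 embryo per library. GPR124 is a receptor of endothelial cells that, together with RECK, passes WNT7 signals on to β-catenin. *Gpr124ΔC/ΔC* embryos carry 2 copies of a knock-in allele in which a V5 tag and a stop codon remove the intracellular tail of the receptor, and *Gpr124-/-* embryos carry 2 copies of a null allele with a lacZ insertion. Both alleles are present in every cell of the embryo, so a change in endothelial RNA need not begin in endothelial cells. According to the paper, the truncated receptor was less abundant as protein than the wild-type receptor, on the cell surface and in total. Its RNA was expressed at a similar level. The part of this lower protein level in the changes of *Gpr124ΔC/ΔC* was not tested. The 2 mutants came from separate heterozygous intercrosses, and the labels do not say from which cross each wild-type embryo came. The sort kept CD31+ cells negative for CD140b, a pericyte protein, for CD45, a blood cell protein, and for a dead cell dye.

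Wnt proteins are secreted lipid-modified ligands. PORCN, an acyltransferase of the endoplasmic reticulum, attaches a fatty acid to a serine of the ligand, and WLS carries the modified ligand to the cell surface. WNT7A and WNT7B, made by neural progenitors and neurons of the embryonic forebrain, act on endothelial GPR124, RECK and Frizzled and raise β-catenin, which drives vessel ingrowth and the blood-brain barrier. WNT5A, WNT5B and WNT11 mostly act without β-catenin, through ROR1, ROR2 and the planar cell polarity proteins, which orient cells and their cytoskeleton.

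The stretch of each ligand gene that encodes the serine modified by PORCN is shown because it is where the ligands and the secretion factors described here meet. Each line gives 45 bases of coding sequence, 5′ to 3′, from the GENCODE vM21 transcripts (GRCm38), with the serine codon in capitals.
Wnt5a: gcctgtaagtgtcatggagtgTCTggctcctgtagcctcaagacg
Wnt5b: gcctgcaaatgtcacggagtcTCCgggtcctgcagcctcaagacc
Wnt7a: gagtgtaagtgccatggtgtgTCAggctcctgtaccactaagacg
Wnt7b: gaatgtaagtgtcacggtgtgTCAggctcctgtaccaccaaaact
Wnt11: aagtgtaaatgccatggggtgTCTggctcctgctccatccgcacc
Wnt4: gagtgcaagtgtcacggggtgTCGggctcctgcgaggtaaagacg
The stretches lie at chr14:28522506-28522550 (plus strand, exon 5 of 5, serine 244) for *Wnt5a*, chr6:119433788-119433832 (minus strand, exon 5 of 5, serine 236) for *Wnt5b* and chr6:91366260-91366304 (minus strand, exon 4 of 4, serine 206) for *Wnt7a*. They lie at chr15:85537800-85537844 (minus strand, exon 4 of 4, serine 213) for *Wnt7b*, chr7:98850251-98850295 (plus strand, exon 6 of 7, serine 215) for *Wnt11* and chr4:137296336-137296380 (plus strand, exon 5 of 5, serine 212) for *Wnt4*. The *Wnt7a* and *Wnt7b* stretches differed at 6 of the 45 bases, the fewest of the 15 pairs, and the *Wnt5a* and *Wnt5b* stretches at 8. Over their aligned coding sequences *Wnt5a* and *Wnt5b* were identical at 77.6% of bases, *Wnt7a* and *Wnt7b* at 77.9% and *Ror1* and *Ror2* at 66.8%. The longest run shared by the transcripts of a pair was 29, 23 and 23 bases, far shorter than a sequencing read, so reads of one gene could seldom be counted on its relative.

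Libraries held from 13877572 to 22551163 reads counted on genes. Levels are in TPM, the reads on a gene divided by its length and scaled to 1 total in all libraries, so that genes can be compared. All 8 endothelial markers examined were present in every genotype, with a summed level of 3710 to 5570 TPM in single libraries. The label check, *Adgra2* (the symbol of *Gpr124*), was at 28.3 to 51.1 TPM in wild type, 34.1 to 63.4 in *Gpr124ΔC/ΔC* and 4.03 to 6.29 in *Gpr124-/-*. Erythroid markers summed to 6650 to 11200 TPM in wild type, 5340 to 9640 in *Gpr124ΔC/ΔC* and 17600 to 52500 in *Gpr124-/-*, the only marker list with all *Gpr124-/-* libraries above all others. Embryo labels begin with a letter whose meaning is not given in the sources used here. Letter J marks 2 wild-type and 2 *Gpr124ΔC/ΔC* embryos, L 1 wild-type and 2 *Gpr124ΔC/ΔC*, K 1 wild-type and 1 *Gpr124-/-*, and M 3 *Gpr124-/-* embryos. Values of single embryos are given in the order JE1, JE6, KE8 and LE6 for wild type, JE3, JE4, LE2 and LE5 for *Gpr124ΔC/ΔC* and KE4, ME1, ME4 and ME5 for *Gpr124-/-*.

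In wild type, *Wls* had the highest level of the 10 genes, 44.7 ± 9.75 TPM (SD, n = 4). *Porcn* followed at 10.4 ± 1.12 and *Wnt5a* at 10 ± 1.71 TPM, and these 2 neighbors overlapped. *Wnt7b* was at 1.70 ± 1.29 TPM, *Ror1* at 1.61 ± 0.607, *Wnt5b* at 1.12 ± 0.569, *Wnt7a* at 0.656 ± 0.471, *Wnt11* at 0.446 ± 0.333, *Ror2* at 0.324 ± 0.219 and *Wnt4* at 0.223 ± 0.268. Every wild-type value of *Wls* lay above every one of *Porcn* and *Wnt5a*, and every one of those lay above the other 7 genes, whose neighbors in the order did not differ beyond their spread. The 2 genes at the bottom, *Wnt4* with 1 to 17 reads and *Ror2* with 0 to 17 reads per library, fell under the minimum count for testing, so 8 of the 10 were tested.

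**Figure D1:**
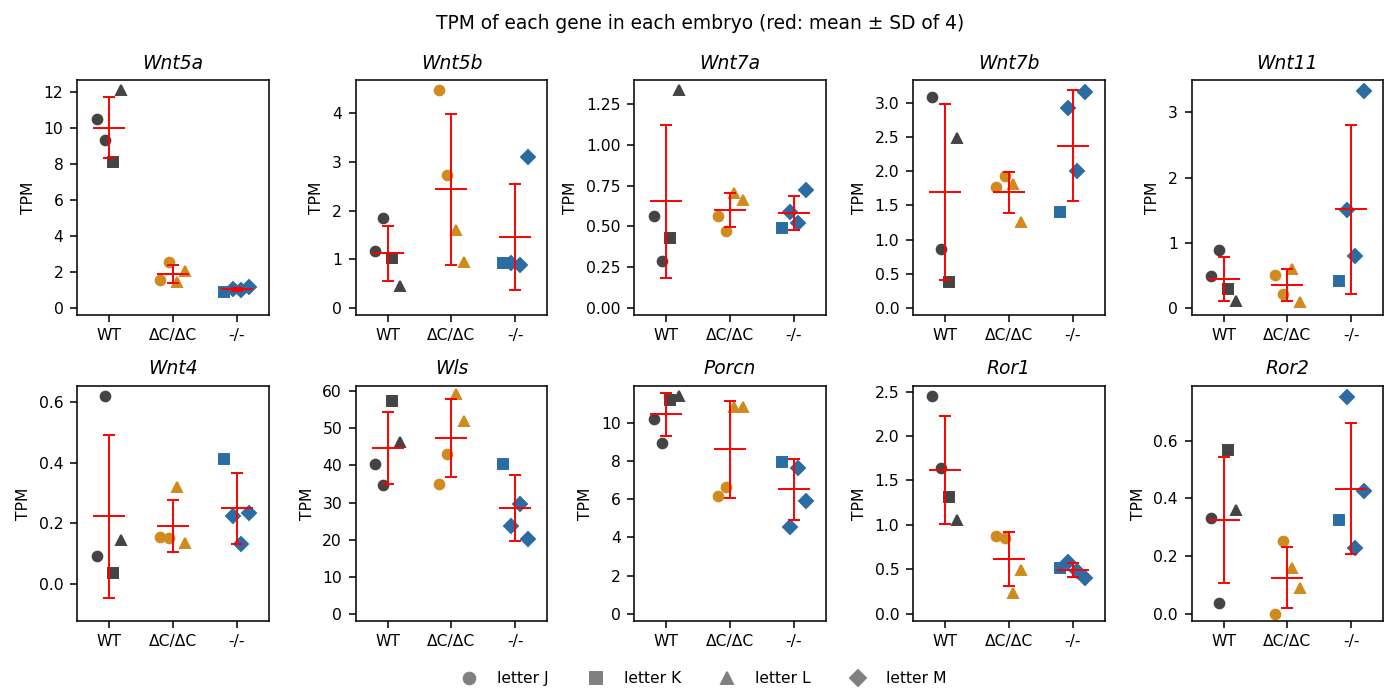
TPM (y axis, linear, a scale of its own in each panel) of the 10 genes in the 4 wild-type (WT), 4 *Gpr124ΔC/ΔC* and 4 *Gpr124-/-* embryos, with the mean and SD in red and the letter of the embryo label as the symbol. *Wnt5a* and *Ror1* are higher in all 4 wild-type embryos than in all 8 mutant embryos, and *Wnt5a* spans 8.13 to 12.1 TPM in wild type against 0.907 to 2.56 in the mutants.

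The expression of the 10 genes was compared between the genotypes with edgeR's quasi-likelihood test on the read counts of all 12 libraries, adjusted by Benjamini-Hochberg over 16637 genes. Genes count as called where the adjusted p is below 0.05 and the log2 fold change is beyond 1 in either direction. In *Gpr124-/-* against wild type, 2 of the 8 tested genes were called lower, *Wnt5a* and *Ror1*, and 0 higher, where 4.21% of all tested genes were called lower and 5.67% higher. Without the fold threshold 4 were lower, *Wnt5a*, *Ror1*, *Wls* and *Porcn*, beside 9.32% of all genes lower and 10.5% higher. In *Gpr124ΔC/ΔC* against wild type 1 was called lower, *Wnt5a*, and 0 higher, beside 1.03% and 0.89% of all genes, and without the fold threshold the count was again 1, beside 2.24% lower and 1.85% higher. Between the mutants, 0 of the 8 were called in either direction by edgeR, where 1.94% of all genes were lower and 2.67% higher in *Gpr124-/-*, while 3 had an unadjusted p under 0.05 and DESeq2 called 1, *Wnt11*. Without the fold threshold 2 were lower in *Gpr124-/-*, *Wnt5a* and *Wls*, beside 3.89% of all genes lower and 4.93% higher. The median log2 fold change of the 8 genes was −0.44 in *Gpr124-/-* against wild type, −0.28 in *Gpr124ΔC/ΔC* against wild type and −0.34 between the mutants, beside −0.01, 0.01 and −0.02 over all tested genes. The 2 comparisons with wild type share its 4 libraries.

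*Wnt5a* was the sole ligand called in either mutant. Its level in the wild-type embryos was 10.5, 9.34, 8.13 and 12.1 TPM, in *Gpr124ΔC/ΔC* embryos 1.54, 2.56, 1.46 and 2.03 TPM, and in *Gpr124-/-* embryos 0.907, 1.03, 1.02 and 1.15 TPM. No value of a genotype overlapped with another genotype, and the *Gpr124-/-* embryos were the lowest and the least spread. The mean was 0.189 of the wild-type mean in *Gpr124ΔC/ΔC* and 0.103 in *Gpr124-/-*, from 422 to 641 reads per library in wild type, 51 to 94 in *Gpr124ΔC/ΔC* and 41 to 58 in *Gpr124-/-*. The log2 fold change was −3.32 in *Gpr124-/-* (95% interval −3.76 to −2.88, adjusted p = 3.44e-07) and −2.48 in *Gpr124ΔC/ΔC* (−2.90 to −2.06, adjusted p = 2.14e-05). Both calls were made under every alternative tried, with log2 fold changes from −3.41 to −2.43 in *Gpr124-/-* and −2.64 to −1.93 in *Gpr124ΔC/ΔC*. For comparison, *Axin2*, a target of β-catenin, had log2 fold changes of −1.56 in *Gpr124-/-* (adjusted p = 9.96e-06) and −1.07 in *Gpr124ΔC/ΔC* (adjusted p = 0.00104). *Lef1*, which encodes a DNA-binding partner of β-catenin, had a log2 fold change of −0.70 in *Gpr124-/-* (adjusted p = 0.000376), and of −0.16 in *Gpr124ΔC/ΔC* (adjusted p = 0.558).

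*Wnt5a* was also lower in *Gpr124-/-* than in *Gpr124ΔC/ΔC* embryos, with a log2 fold change of −0.84 (95% interval −1.27 to −0.41, adjusted p = 0.020). This difference was less firm than those from wild type. The adjusted p was 0.0589 without *Gpr124ΔC/ΔC* embryo JE4, 0.0508 without LE5, 0.0578 without *Gpr124-/-* embryo ME4, 0.0576 with only the mutants in the fit, 0.122 with limma on log2(TPM + 1) and 0.772 with the letter of the label in the model, and no letter holds embryos of both mutants. Within letters, the log2 ratio of mean CPM (reads scaled to library size) of *Gpr124ΔC/ΔC* to wild type was −2.35 in J and −2.90 in L, and that of *Gpr124-/-* to wild type was −3.21 in K. *Wnt5a* (ENSMUSG00000021994) lies on the plus strand of chromosome 14 from 28504750 to 28527447 of GRCm38, and 358 of its exon bases are shared with *Gm2670* on the opposite strand, which held 12 reads in all libraries together against 2664 for *Wnt5a*.

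Because *Wnt5a* was the most abundant of the 19 mouse Wnt genes in wild-type endothelium, its fall changed the makeup of ligand transcripts. It supplied 58.5%, 59.6%, 68.6% and 69.3% of the summed Wnt TPM in the wild-type embryos, 14% to 34.3% in *Gpr124ΔC/ΔC* and 8.42% to 16.6% in *Gpr124-/-*, with no overlap between wild type and either mutant. The summed level of the 19 genes was 15.8 ± 2.81 TPM (SD, n = 4) in wild type, 8.86 ± 2.16 in *Gpr124ΔC/ΔC* and 8.36 ± 3.72 in *Gpr124-/-*. Without *Wnt5a* the sums overlapped, at 3.72 to 7.47, 3.88 to 9.46 and 4.54 to 12.5 TPM. The highest ligand in the mutants was *Wnt5b* in JE3 and JE4, *Wnt7b* in LE2, KE4, ME1 and ME4, *Wnt11* in ME5 and *Wnt5a* only in LE5. Of the other 13 Wnt genes, 12 stayed below 1 TPM in every library and *Wnt6* reached 1.03 TPM in 1. *Wnt9a* alone among these 13 was tested, at log2 fold changes of −0.48 in *Gpr124-/-* (adjusted p = 0.731) and 0.44 in *Gpr124ΔC/ΔC* (adjusted p = 0.903), while *Wnt1*, *Wnt2*, *Wnt2b*, *Wnt3*, *Wnt3a*, *Wnt6*, *Wnt8a*, *Wnt8b*, *Wnt9b*, *Wnt10a*, *Wnt10b* and *Wnt16* were too low. These TPM are of sorted endothelial cells and do not measure the ligands that other cells of the brain make.

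**Figure D2:**
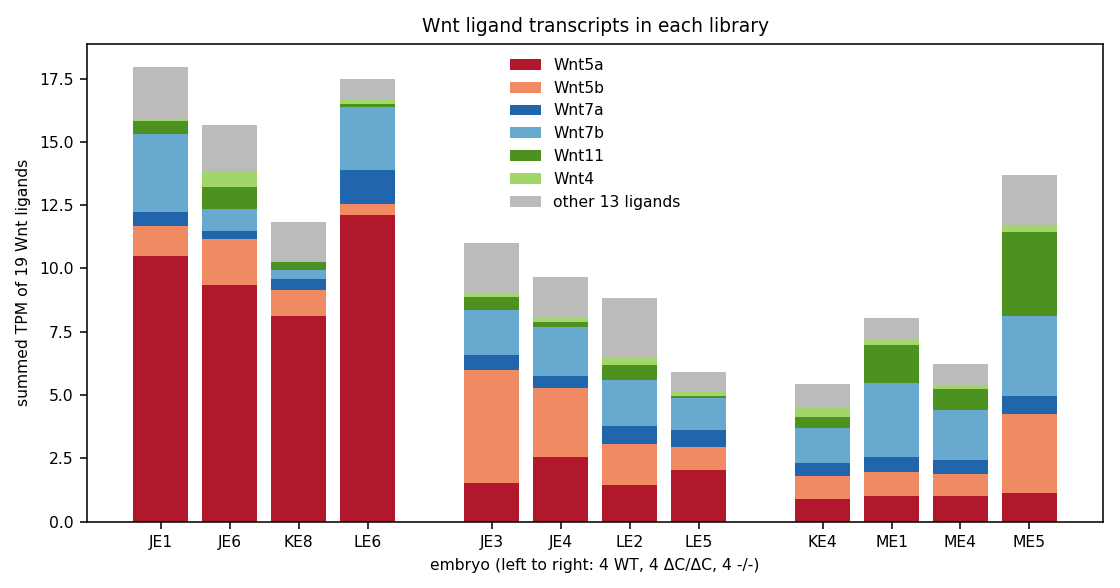
Summed TPM (y axis, from 0) of the 19 mouse Wnt genes in each of the 12 embryos (x axis), stacked by gene with the 13 genes outside the 6 described ligands pooled. The *Wnt5a* segment makes up 58.5% or more of each wild-type bar and 34.3% or less of each mutant bar.

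*Wnt5b*, the close relative of *Wnt5a*, did not pass the test in any comparison. It was at 1.16, 1.84, 1.02 and 0.458 TPM in the wild-type embryos, 4.47, 2.73, 1.60 and 0.935 in *Gpr124ΔC/ΔC* and 0.912, 0.918, 0.884 and 3.09 in *Gpr124-/-*. The genotypes overlapped, and embryo ME5 stood far above the other 3 *Gpr124-/-* embryos. Its log2 fold change was 1.08 in *Gpr124ΔC/ΔC* (95% interval −0.24 to 2.40, adjusted p = 0.493) and 0.32 in *Gpr124-/-* (−1.02 to 1.66, adjusted p = 0.782), the former 0.48 without embryo JE3 and the latter −0.38 without embryo ME5. Markers of the choroid plexus, a secretory epithelium of the brain ventricles, were most abundant in the same JE3 and JE4 libraries in which *Wnt5b* was highest within *Gpr124ΔC/ΔC*, at a summed 1590 and 1030 TPM against 149 in LE2 and 267 in LE5. Nearly all of this sum was *Ttr*, with a mean of 739 TPM in *Gpr124ΔC/ΔC* beside 761 TPM for the 5 markers together. In ME5, with *Wnt5b* at 3.09 TPM, the sum of these markers was 281 TPM, against 32.9 to 230 in the other 3 *Gpr124-/-* embryos. In wild type the sum was 233, 824, 532 and 122 TPM, highest in JE6, as was *Wnt5b*. The part of these markers in the *Wnt5b* values was not tested.

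*Wnt7a* and *Wnt7b*, the ligands that GPR124 and RECK recognize, were low in all 3 genotypes. *Wnt7b* was at 3.08, 0.866, 0.375 and 2.48 TPM in wild type, 1.77, 1.93, 1.82 and 1.25 in *Gpr124ΔC/ΔC* and 1.41, 2.93, 2.0 and 3.16 in *Gpr124-/-*, so that the wild-type range spanned nearly all mutant values. Its log2 fold change was 0.45 in *Gpr124-/-* (95% interval −0.63 to 1.53, adjusted p = 0.599) and −0.07 in *Gpr124ΔC/ΔC* (−1.17 to 1.03, adjusted p = 0.986). Between the mutants it was 0.53 (95% interval −0.57 to 1.62, adjusted p = 0.569). With the letter in the model it was 1.85 in *Gpr124-/-* (adjusted p = 0.243), 1.86 as the ratio within letter K, and 2.25 between the mutants (adjusted p = 0.343). It shares 38 exon bases with *AU022754* on the opposite strand, a gene with 13 reads over all libraries, and whether reads of that strand were counted for *Wnt7b* was not tested. *Wnt7a* was at 0.567, 0.289, 0.427 and 1.34 TPM in wild type, 0.471 to 0.705 in *Gpr124ΔC/ΔC* and 0.491 to 0.723 in *Gpr124-/-*, from 6 to 28 reads per library. Its log2 fold change was −0.19 in *Gpr124-/-* (95% interval −1.08 to 0.70, adjusted p = 0.806) and −0.18 in *Gpr124ΔC/ΔC* (−1.09 to 0.72, adjusted p = 0.941), and both signs turned without wild-type embryo LE6, to 0.37 and 0.38. These intervals reach a log2 fold change of 1 for *Wnt7b* upward and for both ligands downward in at least 1 mutant, so they leave room for a change of that size. Neurons and neural progenitors are known as sources of WNT7. Neuronal markers summed to 101, 70.8, 54.3 and 138 TPM in wild type, 83.9 to 153 in *Gpr124ΔC/ΔC* and 111 to 143 in *Gpr124-/-*. Neural progenitor markers summed to 55.1, 37.4, 38.7 and 51.7 TPM in wild type, 25.2 to 48.1 in *Gpr124ΔC/ΔC* and 37.8 to 50.6 in *Gpr124-/-*. In wild type, *Wnt7b* was highest in JE1 and lowest in KE8 and *Wnt7a* highest in LE6 and lowest in JE6. Whether these reads came from neural cells was not tested.

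*Wnt11*, a ligand of the planar polarity branch, was at 0.496, 0.886, 0.291 and 0.110 TPM in wild type, 0.511, 0.206, 0.594 and 0.0923 in *Gpr124ΔC/ΔC* and 0.418, 1.5, 0.801 and 3.33 in *Gpr124-/-*. In *Gpr124-/-*, the 2 embryos ME1 and ME5 were above every other library, and KE4 and ME4 lay within the wild-type range. ME1 and ME5 also had the highest summed erythroid levels of the 12 libraries, 52500 and 34100 TPM, against 24500 in KE4 and 17600 in ME4, and the part of blood cell RNA in *Wnt11* was not tested. The log2 fold change of *Gpr124-/-* was 1.70 against wild type (95% interval 0.14 to 3.26, adjusted p = 0.128) and 2.13 against *Gpr124ΔC/ΔC* (0.47 to 3.78, adjusted p = 0.110), neither past the threshold over all genes. DESeq2 gave an adjusted p of 0.0427 for the comparison of the mutants, the sole call of *Wnt11*, and without ME5 the edgeR value was 0.94 against wild type (adjusted p = 0.45) and 1.37 against *Gpr124ΔC/ΔC* (adjusted p = 0.356). With the letter in the model these values were 0.47 (adjusted p = 0.931) and 0.74 (adjusted p = 0.977). In *Gpr124ΔC/ΔC* against wild type it was −0.43 (95% interval −2.18 to 1.32, adjusted p = 0.921). Its exons share 364 bases with *Gm8398* on the opposite strand, which held 0 reads.

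*Wnt4*, a ligand with roles in kidney and gonad development, was at most 0.619 TPM in wild type, 0.320 in *Gpr124ΔC/ΔC* and 0.412 in *Gpr124-/-*, and the genotypes overlapped. With the minimum count lifted, its log2 fold change was 0.07 in *Gpr124-/-* and −0.37 in *Gpr124ΔC/ΔC*, with adjusted p values of 1.0 and 0.948. At 1 to 17 reads per library, a moderate difference was not detectable.

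The secretion factors were well expressed, and both were lower in *Gpr124-/-* embryos by less than the fold threshold. *Wls*, the carrier of lipid-modified Wnts, was at 40.4, 34.6, 57.4 and 46.4 TPM in wild type, 35.0, 43.2, 59.4 and 51.9 in *Gpr124ΔC/ΔC* and 40.4, 23.8, 29.5 and 20.2 in *Gpr124-/-*. The *Gpr124ΔC/ΔC* values spanned 35.0 to 59.4 TPM and the wild-type values 34.6 to 57.4, and the 3 *Gpr124-/-* embryos of letter M lay below all of them while KE4 did not. Its log2 fold change in *Gpr124-/-* was −0.70 against wild type (95% interval −1.09 to −0.30, adjusted p = 0.017) and −0.69 against *Gpr124ΔC/ΔC* (−1.09 to −0.29, adjusted p = 0.0339). In *Gpr124ΔC/ΔC* against wild type it was 0.00 (95% interval −0.40 to 0.39, adjusted p = 0.999). The fall from wild type had an adjusted p of 0.051 without wild-type embryo KE8 and 0.0544 without *Gpr124-/-* embryo ME1, 0.0754 with limma on log2(TPM + 1) and 0.156 with the letter in the model, where the ratio within letter K was −0.55. Between the mutants the adjusted p was 0.0509 without JE4, 0.0989 without LE2, 0.0872 without LE5, 0.104 without ME1, 0.0791 without ME4, 0.0864 without ME5, 0.0545 with only the mutants in the fit, 0.0811 with limma and 0.314 with the letter. *Wls* (ENSMUSG00000028173) lies on the plus strand of chromosome 3 from 159839672 to 159938664.

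*Porcn*, the acyltransferase gene (ENSMUSG00000031169, minus strand of chromosome X, 8193848 to 8206525), was at 10.2, 8.96, 11.2 and 11.4 TPM in wild type, 6.18, 6.61, 10.8 and 10.8 in *Gpr124ΔC/ΔC* and 7.96, 4.56, 7.64 and 5.90 in *Gpr124-/-*. All *Gpr124-/-* values were below all wild-type values, and the *Gpr124ΔC/ΔC* embryos split by letter, with both J embryos among the *Gpr124-/-* values and both L embryos among the wild-type values. Its log2 fold change was −0.72 in *Gpr124-/-* (95% interval −1.14 to −0.31, adjusted p = 0.0165), −0.37 in *Gpr124ΔC/ΔC* (−0.78 to 0.04, adjusted p = 0.417) and −0.35 between the mutants (−0.77 to 0.06, adjusted p = 0.304). The fall in *Gpr124-/-* stayed past an adjusted p of 0.05 without any 1 library, at 0.0483 at most, but not with limma on log2(TPM + 1), at 0.0649, nor with the letter in the model, at 0.488. Within letter K, the log2 ratio of *Gpr124-/-* to wild type was −0.54, and within J and L that of *Gpr124ΔC/ΔC* was −0.63 and −0.18. The summed erythroid level of the *Gpr124-/-* embryos was 24500, 52500, 17600 and 34100 TPM, and the 2 highest, ME1 and ME5, had the 2 lowest levels of both *Wls* and *Porcn* among the 4. The part of blood cell RNA in the lower *Wls* and *Porcn* was not tested.

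**Figure D3:**
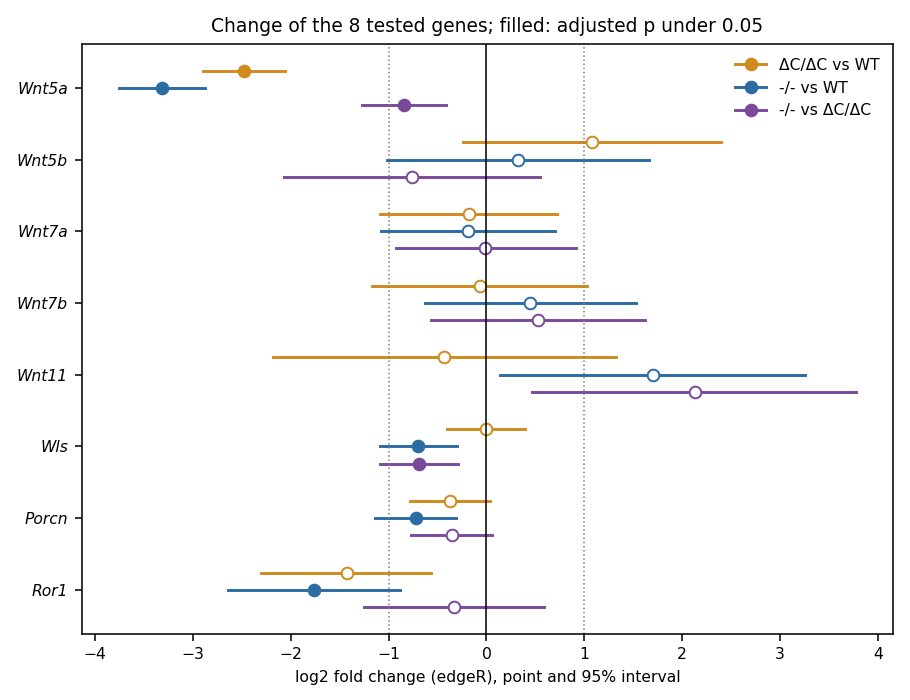
Log2 fold changes (x axis) with 95% intervals from edgeR for the 8 tested genes in the 3 comparisons, with filled points at an adjusted p under 0.05 and dotted lines at −1 and 1. Filled points beyond −1 are those of *Wnt5a* in both mutants against wild type and of *Ror1* in *Gpr124-/-* against wild type.

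*Ror1* (ENSMUSG00000035305, plus strand of chromosome 4, 100095791 to 100444765), which encodes a receptor of the tyrosine kinase family that binds WNT5A, fell in *Gpr124-/-* endothelium. Its level was 2.45, 1.64, 1.31 and 1.06 TPM in the wild-type embryos, 0.875, 0.852, 0.233 and 0.497 in *Gpr124ΔC/ΔC* and 0.510, 0.586, 0.479 and 0.398 in *Gpr124-/-*. Both mutants lay wholly below wild type, and the *Gpr124-/-* values fell within the range of *Gpr124ΔC/ΔC*. The log2 fold change was −1.76 in *Gpr124-/-* (95% interval −2.64 to −0.88, adjusted p = 0.0076) and −1.43 in *Gpr124ΔC/ΔC* (−2.30 to −0.57, adjusted p = 0.071), the latter short of the threshold. Between the mutants it was −0.33 (95% interval −1.25 to 0.59, adjusted p = 0.684), and the mutants were not shown to differ. *Gpr124ΔC/ΔC* passed the threshold with DESeq2 (adjusted p = 0.0136), with the letter in the model (0.0137) and without embryo JE3 (0.0421). *Gpr124-/-* kept its call without any 1 library and lost it with the letter in the model (log2 fold change −1.40, adjusted p = 0.224), where only the K pair holds both genotypes. Within letters the log2 ratio was −1.28 in J and −1.63 in L for *Gpr124ΔC/ΔC* and −1.40 in K for *Gpr124-/-*. Counts were 40 to 110 reads per library in wild type, 6 to 31 in *Gpr124ΔC/ΔC* and 14 to 20 in *Gpr124-/-*, so the mutant values rest on few reads.

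*Ror2*, the other receptor of this family, was too low to test under the minimum count. It was at 0.333, 0.0360, 0.568 and 0.358 TPM in wild type, 0, 0.252, 0.158 and 0.0900 in *Gpr124ΔC/ΔC* and 0.326, 0.751, 0.228 and 0.425 in *Gpr124-/-*, and the genotypes overlapped. The 0 in embryo JE3 allows a level of up to 0.115 TPM, the equivalent of 3 reads, with counting error only. With the minimum lifted its log2 fold change was −1.49 in *Gpr124ΔC/ΔC* (adjusted p = 0.61), 0.40 in *Gpr124-/-* (adjusted p = 0.791) and 1.89 between the mutants (adjusted p = 0.23). *Ror1* was thus the more abundant of the 2 receptors in wild type, and in *Gpr124-/-* their means were 0.493 ± 0.0776 TPM for *Ror1* and 0.433 ± 0.227 TPM for *Ror2* (SD, n = 4).

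**Figure D4:**
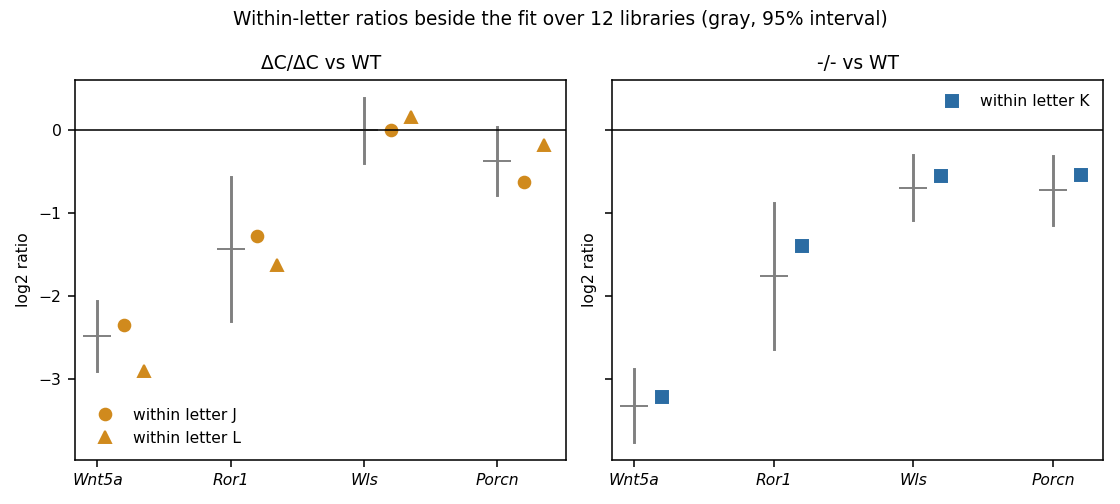
Log2 ratios of mean CPM (y axis) within a letter of the embryo label, for *Gpr124ΔC/ΔC* against wild type (left, letters J and L) and *Gpr124-/-* against wild type (right, letter K), beside the edgeR value of all 12 libraries with its 95% interval in gray. *Wnt5a* and *Ror1* lie below −1 in each letter, from −3.21 to −1.28, and *Wls* lies at 0.00 and 0.16 in *Gpr124ΔC/ΔC* and at −0.55 in *Gpr124-/-*.

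Pericytes and fibroblasts are other cells known to express *Wnt5a* and *Ror1*, and their markers were examined in the same libraries. The 11 pericyte and mural markers summed to 39.8 to 91.0 TPM in wild type, 21.8 to 49.7 in *Gpr124ΔC/ΔC* and 42.1 to 56.6 in *Gpr124-/-*, with means of 58.6, 31.7 and 50.3 TPM, and 8 of 11 had a mean of 1 TPM or more in each genotype. All 11 were tested, with a median log2 fold change of −0.83 and 1 called lower in *Gpr124ΔC/ΔC*, and of −0.03 with 1 called higher and 1 lower in *Gpr124-/-*. The 8 fibroblast and meningeal markers summed to 28.0 to 89.0, 30.2 to 56.2 and 30.8 to 33.5 TPM, with means of 54.6, 38.3 and 32.2. *Foxc1* alone supplied a large part of these sums, with means of 26.8, 25.2 and 17.8 TPM in the same order. For the 7 of the 8 markers that were tested, the median log2 fold change was −0.52 with 0 called in *Gpr124ΔC/ΔC*. It was −0.66 with 1 called lower in *Gpr124-/-*. Both medians had the direction of *Wnt5a* and *Ror1*. No marker of either list was at 0 in every library of a genotype. The part of these cells in the 2 falls was not tested, and in sorted bulk RNA fewer cells of a type cannot be told apart from less RNA per cell. The 9 neural progenitor markers summed to 25.2 to 55.1 TPM and the 7 macrophage markers to 0.237 to 13.6 TPM over all libraries.

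Genes whose pattern over the 12 libraries was most like that of *Wnt5a* or *Ror1* were ranked by the root mean square difference of log2 CPM, each gene centered on its own mean, among the 10913 genes that averaged 5 CPM or more. Nearest to *Wnt5a* were *Tgfa*, which encodes an EGF receptor ligand, at a difference of 0.33, *Fam20c*, which encodes a secretory pathway kinase, at 0.39, and *Pglyrp1*, which encodes a peptidoglycan recognition protein, at 0.40. The mean TPM of *Tgfa* was 15.3 in wild type, 2.34 in *Gpr124ΔC/ΔC* and 1.86 in *Gpr124-/-*, and that of *Pglyrp1* was 605, 162 and 62.2. Nearest to *Ror1* were *Foxf1*, a forkhead factor, at 0.35, *Cpe*, which encodes carboxypeptidase E, at 0.37, and *Ppm1h*, which encodes a phosphatase, at 0.39. The mean TPM of *Foxf1* was 26.7, 10.1 and 5.96. These ranks describe 12 libraries that differ by genotype, and they have no test.

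The promoter of *Ror1* is shown because *Ror1* was the called gene with an entry in the RefSeq promoter table (GRCm38.p6), which held windows for 7 of the 10 genes and none for *Wnt5a*, *Wnt7b* and *Porcn*. The line gives the 250 bases before the start site on the plus strand, chr4:100095541-100095790, with a match in capitals to CTTTGA, a core of the sites bound by the partners of β-catenin, here on the other strand.
Ror1: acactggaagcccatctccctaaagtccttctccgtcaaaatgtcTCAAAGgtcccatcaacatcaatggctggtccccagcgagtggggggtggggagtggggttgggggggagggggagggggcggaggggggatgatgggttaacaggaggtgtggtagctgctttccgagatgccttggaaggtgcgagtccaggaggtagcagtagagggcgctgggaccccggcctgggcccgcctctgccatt
The match begins at position −205 from the start site. Of 10 windows of the 7 genes 3 held the motif on either strand, 1 each of *Ror1*, *Wnt5b* and *Wnt11*, and of all 32851 windows of this length 13.8% held it. A match is a run of letters and not evidence of binding, and the windows of *Wls*, *Wnt4*, *Wnt7a* and *Ror2* held none.

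The rest of the secretion pathway was examined with a list of 11 genes for lipid addition, trafficking and removal of Wnts, all of which were tested. In *Gpr124-/-* 3 were lower at an adjusted p under 0.05, *Porcn* and *Wls*, already counted above, and *Notum*, and 8 did not pass, where 9.32% of all tested genes were lower. In *Gpr124ΔC/ΔC* *Notum* alone was lower, where 2.24% of all genes were. *Notum*, which encodes a secreted enzyme that removes the lipid from Wnts, was the sole gene of the list past the fold threshold, at 24.3, 18.7, 14.9 and 17.0 TPM in wild type, 0.278 to 1.62 in *Gpr124ΔC/ΔC* and 0.953 to 1.79 in *Gpr124-/-*. The other 8 are cargo receptors of the TMED family, and retromer subunits and a sorting nexin that return WLS. They had adjusted p values over 0.05 in each comparison. In *Gpr124-/-* against wild type 5 of the 11 had an unadjusted edgeR p under 0.05, with *Vps35* (log2 fold change −0.52) and *Vps26a* (−0.36) among them. The list's median log2 fold change was −0.32 in *Gpr124-/-* and −0.05 in *Gpr124ΔC/ΔC*.

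The receptor side was examined with 18 genes for non-canonical Wnt receptors and planar cell polarity, of which 16 were tested and *Ror2* and *Daam2* were too low. In *Gpr124-/-* 2 were higher at an adjusted p under 0.05 and 2 lower, beside 10.5% of all tested genes higher and 9.32% lower, with 1 called in each direction, *Prickle2* higher and *Ror1* lower, beside 5.67% and 4.21%. The counts in *Gpr124-/-* are near the shares over all genes. In *Gpr124ΔC/ΔC* 2 were higher and 1 lower, beside 1.85% and 2.24% of all genes, with *Celsr1* called higher, beside 0.89%. Between the mutants 3 were higher in *Gpr124-/-*, beside 4.93%, with *Ptk7* called, beside 2.67%. *Prickle2*, which encodes a cytoplasmic polarity protein, rose to 4.52 to 6.23 TPM in *Gpr124-/-* from 1.83 to 2.20 in wild type, a log2 fold change of 1.32 (95% interval 1.01 to 1.64, adjusted p = 3.48e-05), with *Gpr124ΔC/ΔC* between them at 2.77 to 3.78 TPM. *Celsr1*, which encodes a cadherin of the polarity complex, rose to 3.59 to 8.21 TPM in *Gpr124ΔC/ΔC* from 1.35 to 3.04 in wild type (log2 fold change 1.32, adjusted p = 0.0455). JE3 was the highest at 8.21 TPM, against 3.59 to 4.73 in the other 3, and without it the log2 fold change was 0.91 (adjusted p = 0.104). In *Gpr124-/-* *Celsr1* was at 3.10 to 4.09 TPM, above all wild-type values. Its log2 fold change there was 0.81 (95% interval 0.09 to 1.53, adjusted p = 0.114), which did not pass. JE3 also had the highest choroid plexus sum, 1590 TPM, as did JE6, the highest wild-type library for *Celsr1*, among wild type with 824 TPM, while LE2 at 4.73 TPM of *Celsr1* had 149 TPM. The choroid plexus sums were 122 to 824 TPM in wild type and 32.9 to 281 TPM in *Gpr124-/-*. The part of choroid plexus RNA in *Celsr1* was not tested. *Ptk7*, which encodes a pseudokinase co-receptor, was at 27.8 to 57.5 TPM in *Gpr124-/-* against 18.7 to 24.3 in *Gpr124ΔC/ΔC* (log2 fold change 1.07, adjusted p = 0.019). Wild type was at 16.6 to 29.6 TPM. Against it the log2 fold change of *Ptk7* was 0.88 in *Gpr124-/-* (adjusted p = 0.0252) and −0.19 in *Gpr124ΔC/ΔC* (adjusted p = 0.867). The median log2 fold change of the list was 0.21 in *Gpr124-/-* and −0.07 in *Gpr124ΔC/ΔC*, and 12 and 13 of the 16 did not pass the test. The calls of *Notum* and *Prickle2* were made under all 19 alternatives. That of *Celsr1* was made under 8 of 19, with an adjusted p of 0.0583 to 0.131 without 1 of 10 libraries, all but wild-type JE6 and *Gpr124ΔC/ΔC* LE5, and that of *Ptk7* under 11 of 19, with 0.0524 to 0.0656 without JE4, LE2, LE5, ME4 or ME5 and 0.226 with the letter in the model.

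**Figure D5:**
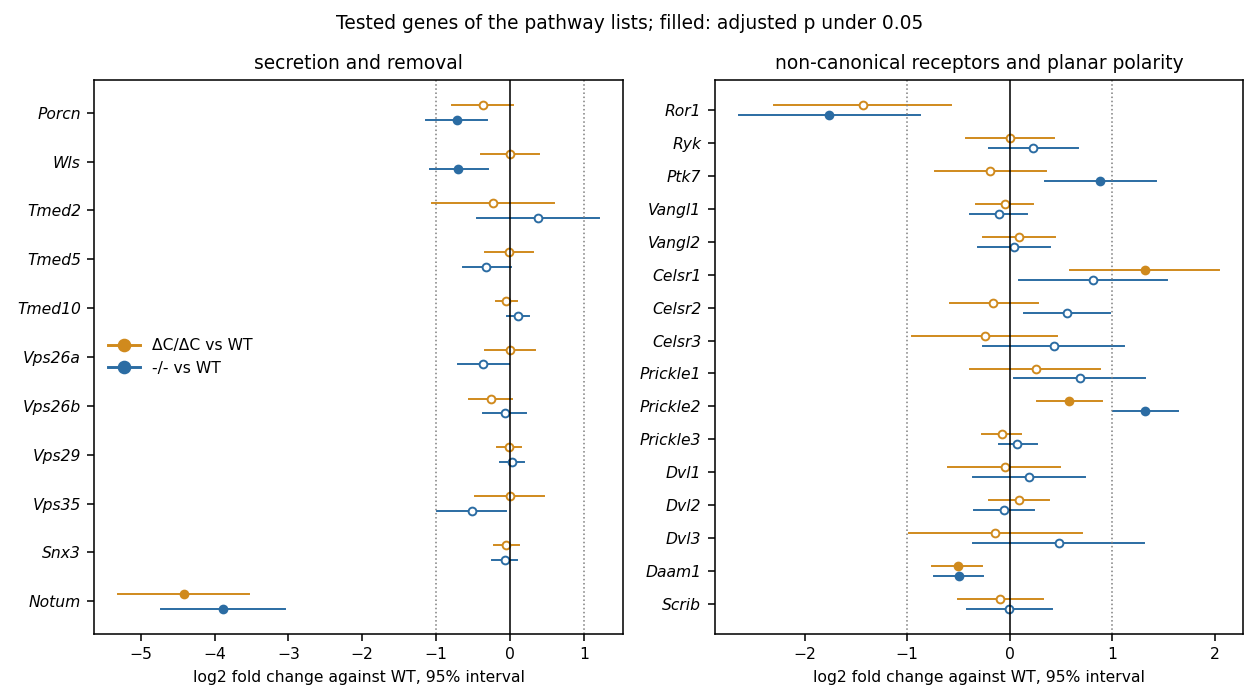
Log2 fold changes against wild type (x axis) with 95% intervals for the 11 secretion and removal genes (left) and the 16 tested non-canonical receptor and planar polarity genes (right) in *Gpr124ΔC/ΔC* and *Gpr124-/-*, filled at an adjusted p under 0.05. *Notum* lies at −4.41 and −3.88, *Ror1* at −1.43 and −1.76, and *Prickle2* at 0.58 and 1.32.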

How the data were processed

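CD31+ cells were sorted from E15.5 forebrains of 4 wild-type, 4 *Gpr124ΔC/ΔC* and 4 *Gpr124-/-* embryos. Poly(A) RNA was amplified and sequenced in pairs, and the submitters' notes name bcl2fastq 2.17 and mm10. The aligner, the counting program and strandedness are not given in the sources used here. The authors deposited raw counts per gene and TPM, which matched TPM recomputed from the counts to within 0.00498%. Counts (16637 genes kept by filterByExpr, count minimum 10) were scaled by TMM and fitted with edgeR 4.0.16 in R 4.3.3, genotype as the term, with Benjamini-Hochberg adjustment. The alternatives were DESeq2 1.42.0, upper-quartile factors, no filter, the label letter as a term, 2 genotypes per fit, no fold threshold, limma 3.58.1 on log2 of the deposited TPM plus 1 or 0.1, and each library left out. The fits were tested on simulated data. Within-letter ratios were added after seeing the data. The 10 genes and the lists were chosen with earlier results of these data known. Named genes were the 10, listed genes that were called or not tested, *Adgra2*, *Axin2* and *Lef1*, and the 3 genes nearest to each called gene. *Wnt9a* (the tested ligand outside the 10), *Foxc1*, *Ttr*, *Vps35*, *Vps26a* and the genes overlapping *Wnt5a*, *Wnt7b* and *Wnt11* were named after their values were seen. Replicates are separate embryos. From 13877572 to 22551163 reads per library limit *Wnt4*, *Wnt7a*, *Wnt11* and *Ror2* most. Floors and intervals of counts cover counting error only. Tables were made in Python 3.11.15 with pandas 2.3.3, numpy 2.4.6 and Biopython 1.88.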

Additional observations from a re-analysis of the deposited data

Results flagged for a closer look

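In 30 sets of 4 libraries (10 genes in 3 genotypes), 2 held a library whose gap to its nearest neighbor was past Dixon's 95% critical value as a share of the range, where chance gives about 1 in 20. *Wnt5b* in *Gpr124-/-* embryo ME5 was at 3.09 TPM, against 0.884 to 0.918 TPM in the other 3 embryos. *Wnt4* in *Gpr124ΔC/ΔC* embryo LE2 was at 0.320 TPM, from 6 reads, against 0.137 to 0.155 TPM in the other 3.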

How the results depend on the processing

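The number of the 10 genes called in *Gpr124-/-* against wild type was 2, and it was 1 with the label letter as a term, 1 with limma on log2(TPM + 1) and on log2(TPM + 0.1), where *Ror1* was under the TPM filter, and 4 without the fold threshold. In *Gpr124ΔC/ΔC* against wild type it was 1, and 2 with DESeq2 or the letter, and 1 to 2 with a library left out. Between the mutants it was 0, and 1 with DESeq2 and 2 without the fold threshold. Of 471 values of single genes under these alternatives, 412 kept their direction and side of the threshold, 26 lost it, 4 gained it and 29 changed sign, all 29 in genes and comparisons with no call. With the letter as a term the log2 fold change of *Wnt5b* and *Wnt7a* in *Gpr124-/-* became −0.21 and 0.15, that of *Wls* in *Gpr124ΔC/ΔC* 0.06, and that of *Wnt7a* between the mutants 0.53. *Wls* in *Gpr124ΔC/ΔC* was 0.02 with upper-quartile factors, 0.01 with 2 genotypes in the fit and 0.08 with limma at either pseudocount. *Wnt7b* in *Gpr124ΔC/ΔC* was 0.13 and 0.35 with limma at pseudocounts of 1 and 0.1, and *Wnt7a* between the mutants was 0.00 with DESeq2 and 0.01 without the filter. With a library left out, *Wnt5b* in *Gpr124-/-* ranged from −0.38 to 0.72, *Wnt7a* from −0.41 to 0.37 in *Gpr124-/-*, −0.40 to 0.38 in *Gpr124ΔC/ΔC* and −0.14 to 0.08 between the mutants. In *Gpr124ΔC/ΔC*, *Wnt7b* ranged from −0.40 to 0.38, *Wnt11* from −0.79 to 0.18 and *Wls* from −0.10 to 0.12. The cause of these changes was not tested. No paired analysis was possible by replicate number, because these numbers only name embryos in accession order. The letter, which wild type shares with each mutant, was the block that could be fitted, and with it *Ror1* lost its call in *Gpr124-/-* (adjusted p = 0.224) and gained one in *Gpr124ΔC/ΔC* (adjusted p = 0.0137).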
